A study of Mus musculus with 2 samples.

Results

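The CDK inhibitors, the D cyclins and *Cdk4* set whether a cell of the melanocyte lineage leaves G1 or stops dividing, and 10 of their genes were followed here among the 32285 genes measured. The members were taken by family, namely *Cdkn1a*, *Cdkn1b* and *Cdkn1c* (the Cip/Kip inhibitors), *Cdkn2a*, *Cdkn2b* and *Cdkn2c* (INK4 inhibitors), *Ccnd1*, *Ccnd2* and *Ccnd3*, and *Cdk4*. The question was how their transcripts differ between melanocyte stem cells (McSCs) that have entered regeneration and melanocytes of the hair bulb, which make pigment for the shaft. All 10 were present in both matrices, and each had UMIs in both libraries.

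Cells of 2 states were sampled by 3′ droplet scRNA-seq from back skin, with 1 library each. Early-anagen McSCs came from *Dct-rtTA; tetO-H2B-GFP* mice 4 days after depilation, which starts a new growth phase (anagen). Mature melanocytes came from dissected bulbs of anagen VI follicles of mice with the same transgenes at 5 weeks of age. In both, the *Dct* promoter drives a nuclear GFP that is switched on by doxycycline, so cells were taken by activity of a melanocyte promoter and GFP persists after it is made. Cells of 4 mice were combined in each library. The early-anagen library was made with version 3 of the droplet kit and the bulb library with version 2, and the enzymes used to free the cells, the hair cycle stage, depilation and, by the study's methods, the age of the mice (older in early anagen) differed too, so these cannot be told apart from the cell state. With 1 library per state no test between states was possible, no p-value is given, and all intervals are exact 95% intervals that cover counting error only.

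Selected cells had at least 1 *Dct* UMI, fewer than 3 UMIs of *Krt10* and *Krt14* together, under 5% mitochondrial UMIs, and more than 10000 UMIs in early anagen or more than 5000 in the bulb. This left 2785 of 11010 barcodes in early anagen, with a median of 24528 UMIs, and 3734 of 4327 barcodes in the bulb, with a median of 14287. The libraries shared 1 barcode, and 0 among selected cells. All 8 melanocyte markers tested, including *Tyrp1*, *Pmel* and *Sox10*, exceeded 10 CPM in both libraries. The summed levels of the markers of other cell types were 37.0 CPM in early anagen and 16.5 in the bulb for the 6 epidermal keratinocyte genes, of which 3 were at 0 in the bulb, and at most 17.6 CPM for hair matrix, fibroblast, immune and endothelial genes. *Dct*, *Krt10* and *Krt14* are among these markers and were also used to select the cells, so their levels were set in part by the selection. *Krt10* alone was at 13.1 CPM in early anagen and 16.2 CPM in the bulb.

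D cyclins bind CDK4 or its relative CDK6 and start the phosphorylation of the retinoblastoma protein (RB), which frees E2F transcription factors and lets the cell begin DNA replication. INK4 proteins occupy CDK4 and CDK6 and keep D cyclins off them, whereas Cip/Kip proteins bind assembled cyclin-CDK complexes, and block CDK2 in particular. *Cdkn1a* encodes p21, a classic p53 target, and *Cdkn1b* encodes p27, known for its accumulation in quiescent cells. In the hair follicle, McSCs divide at the onset of anagen, and mature bulb melanocytes are regarded as postmitotic.

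The genes lie on 5 chromosomes of GRCm38. *Cdkn2a* (chromosome 4, 89274471 to 89294653) and *Cdkn2b* (chromosome 4, 89306299 to 89311039) are neighbours on the minus strand, and *Cdkn2c* lies further along the same chromosome (109660876 to 109667189). *Cdkn1a* (29090976 to 29100727) and *Ccnd3* (47505051 to 47599691) lie on chromosome 17, *Cdkn1b* (134920401 to 134925513) and *Ccnd2* (127125162 to 127152193) on chromosome 6, and *Cdkn1c* (143458339 to 143461050) and *Ccnd1* (144929931 to 144939925) on chromosome 7. *Cdk4* is on chromosome 10 (127063534 to 127067920). None of the 10 overlaps another gene on its own strand in GENCODE vM21. *Cdkn2a* carries 2 starts whose transcripts share the exons at the 3′ end, so the UMIs of p16Ink4a and p19Arf cannot be separated in 3′ counts.

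Promoter sequence from RefSeq (GRCm38.p6) could be matched for 7 of the 10 members, in 11 windows of 250 bases before a start. The windows of *Cdkn2a* and *Cdk4* are shown, because *Cdkn2a* has 1 start for each of its proteins and because these genes held the E2F and E-box letters searched for. Capitals mark a match, 5′ to 3′, on either strand.
Cdkn2a, upstream start (chr4:89294620-89294869, minus strand): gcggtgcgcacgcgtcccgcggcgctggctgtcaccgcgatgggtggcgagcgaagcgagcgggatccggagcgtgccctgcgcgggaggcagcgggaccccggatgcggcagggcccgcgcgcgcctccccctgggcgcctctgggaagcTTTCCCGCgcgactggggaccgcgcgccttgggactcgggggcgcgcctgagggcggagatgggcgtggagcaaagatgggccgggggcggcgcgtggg
Cdkn2a, downstream start (chr4:89282193-89282442, minus strand): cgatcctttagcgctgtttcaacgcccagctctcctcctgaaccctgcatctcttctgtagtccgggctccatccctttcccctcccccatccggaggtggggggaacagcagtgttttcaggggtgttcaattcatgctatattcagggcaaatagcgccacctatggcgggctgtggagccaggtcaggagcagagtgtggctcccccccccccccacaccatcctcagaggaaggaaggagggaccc
Cdk4 (chr10:127063285-127063534, plus strand): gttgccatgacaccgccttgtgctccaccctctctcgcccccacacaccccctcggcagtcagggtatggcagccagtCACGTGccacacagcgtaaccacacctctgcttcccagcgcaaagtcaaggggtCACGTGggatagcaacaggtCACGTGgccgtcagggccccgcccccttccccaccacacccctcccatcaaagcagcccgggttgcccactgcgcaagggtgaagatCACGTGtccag
The E2F letters searched were TTTGGCGC, TTTCGCGC, TTTCCCGC and TTTGCCGC, which 1.86% of 32851 mouse promoter windows of the same length hold. Among the members' windows they occurred once, 99 bases before the upstream *Cdkn2a* start. The E-box letters CACGTG, held by 6.02% of all windows, occurred 4 times in the *Cdk4* window and in no other window of a member. A match here is only a match of letters.

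Between early-anagen McSCs and bulb melanocytes the main Cip/Kip transcript differed, *Cdkn1b* in early anagen and *Cdkn1a* in the bulb. *Ccnd2*, the leading D cyclin in both, was higher in the bulb, and *Cdkn2c* and *Ccnd1* were lower there. *Cdk4* differed little. Levels are UMIs summed over the selected cells and scaled to a common total as CPM, and since 1 UMI stands for 1 captured 3′ end, levels of different genes need no correction for length. In early anagen the order was *Cdk4* (360 CPM), *Ccnd2* (139), *Cdkn1b* (99.3), *Ccnd3* (96.8), *Ccnd1* (59.2), *Cdkn2c* (46.9), *Cdkn1a* (43.0), *Cdkn1c* (3.94), *Cdkn2a* (3.82) and *Cdkn2b* (1.81). *Cdkn1b* and *Ccnd3* did not differ beyond counting error, and neither did *Cdkn1c* and *Cdkn2a*. In the bulb the order of levels was *Ccnd2* (598 CPM), *Cdk4* (373), *Cdkn1a* (195), *Ccnd3* (111), *Ccnd1* (18.0), *Cdkn2c* (12.6), *Cdkn1b* (12.6), *Cdkn2b* (10.5), *Cdkn2a* (6.75) and *Cdkn1c* (0.09), and only *Cdkn2c* and *Cdkn1b* were neighbours that could not be separated.

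A gene was called higher or lower when its CPM differed by at least 1.5-fold and it reached 10 CPM in either library. *Cdkn1c* and *Cdkn2a* missed this minimum, and *Cdkn2b* reached it only through the bulb, so that it could only be called higher. Of the 8 members left, *Cdkn1a*, *Cdkn2b* and *Ccnd2* were higher in the bulb, where 26.5% of all 8020 genes were called higher. *Cdkn1b*, *Cdkn2c* and *Ccnd1* were lower, where 38.8% of all genes were called lower. *Ccnd3* and *Cdk4* stayed within 1.5-fold. The median log2 ratio of the 8 was 0.12, beside -0.19 over all genes. With TMM factors from edgeR every log2 ratio moved up by 0.31, and the genes called higher and lower were then 37.2% and 29.96%. The same 3 members stood at each side under that scaling. At equal depth 3 were again higher and 3 lower, beside 26.9% and 38.6% of genes at 10000 UMIs per cell and 27.1% and 38.1% at 5000.

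**Figure D1:**
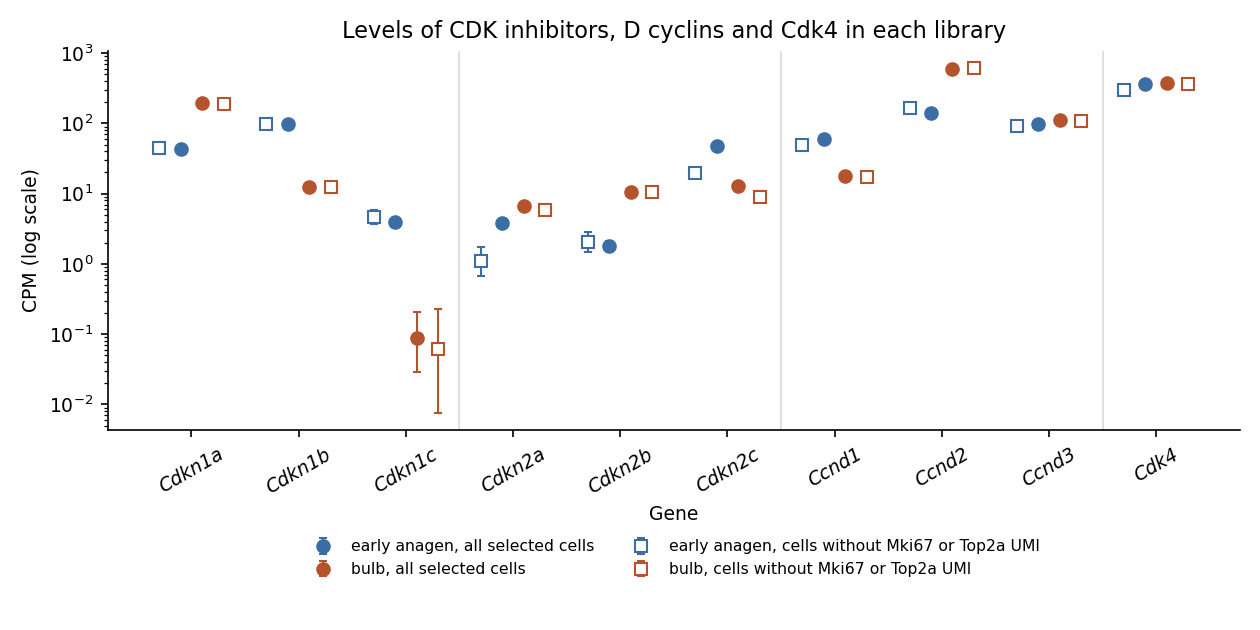
Level of each of the 10 genes (CPM, log axis) in early anagen (blue) and the bulb (orange), for all selected cells (filled) and for cells thinned to 10000 UMIs that held no *Mki67* or *Top2a* UMI (open); bars are 95% counting intervals. *Cdkn1a*, *Cdkn2b* and *Ccnd2* lie higher in the bulb and *Cdkn1b*, *Cdkn1c*, *Cdkn2c* and *Ccnd1* lower in both sets of cells, and *Cdk4* lies near 300 to 370 CPM throughout.

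Among the Cip/Kip inhibitors, *Cdkn1a* stood at 43.0 CPM (41.5 to 44.5) in early anagen and at 195 CPM (192 to 199) in the bulb, which gave a log2 ratio (bulb to early anagen) of 2.18 (2.13 to 2.24). *Cdkn1b* stood at 99.3 CPM (97.1 to 102) and 12.6 CPM (11.7 to 13.6), a log2 ratio of -2.98 (-3.09 to -2.87). The p21 and p27 transcripts thus stood in opposite order in the libraries. *Cdkn1c*, the imprinted gene of p57, had 298 UMIs in early anagen and 5 in the bulb, that is 3.94 and 0.09 CPM. Summed, the 3 genes reached 146 CPM (144 to 149) in early anagen and 208 CPM (204 to 212) in the bulb. *Cdkn1b* supplied 67.9% of these UMIs in early anagen, and *Cdkn1a* supplied 93.9% in the bulb.

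The 3 INK4 members summed to 52.5 CPM (50.9 to 54.2) in early anagen and 29.8 CPM (28.4 to 31.3) in the bulb. *Cdkn2d*, the INK4 gene of p19Ink4d, which is not among the 10, was more abundant than these, at 79.5 CPM in early anagen and 96.9 CPM in the bulb, and with it the class stood at 132 CPM (129 to 135) and 127 CPM (124 to 129.7). *Cdkn2c*, which encodes p18, accounted for 35.5% of the UMIs of all 4 genes in early anagen and 9.97% in the bulb. Its level was 46.9 CPM (45.3 to 48.4) in early anagen and 12.6 CPM (11.7 to 13.6) in the bulb, a log2 ratio of -1.89 (-2.01 to -1.77). The p15 gene *Cdkn2b* had the opposite order, with 1.81 CPM (1.52 to 2.14) in early anagen and 10.5 CPM (9.62 to 11.3) in the bulb, a log2 ratio of 2.53 (2.26 to 2.81). *Cdkn2a* was at 3.82 CPM (3.39 to 4.28) in early anagen and 6.75 CPM (6.08 to 7.46) in the bulb, under the minimum in both. Each of the 3 was thus far below *Cdkn1a* in bulb cells.

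The D cyclins together stood at 295 CPM (291 to 298) in early anagen and 726 CPM (719 to 734) in the bulb. *Ccnd2* made up most of the bulb total, at 139 CPM (136 to 141) in early anagen against 598 CPM (591 to 604) in the bulb and a log2 ratio of 2.11 (2.08 to 2.14). It made up 47.0% of D cyclin UMIs in early anagen and 82.3% in the bulb. *Ccnd1*, the D cyclin most closely tied to mitogen signals, was at 59.2 CPM (57.4 to 60.9) and 18.0 CPM (16.9 to 19.2), a log2 ratio of -1.72 (-1.82 to -1.62). *Ccnd3* was at 96.8 CPM (94.6 to 99.1) in early anagen and 111 CPM (108 to 113) in the bulb, a log2 ratio of 0.19 (0.14 to 0.24). *Cdk4* was at 360 CPM (356 to 365) in early anagen and 373 CPM (368 to 378) in the bulb. Its log2 ratio was 0.05 (0.02 to 0.08), and -0.13 when mitochondrial, ribosomal protein and melanocyte marker genes were left out of the total. That choice moved every log2 ratio by -0.18.

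To compare cells at equal depth, each was thinned at random to 10000 UMIs, which left out 446 bulb cells and kept 2785 early-anagen and 3288 bulb cells. *Cdkn1a* was then seen in 27.8% of early-anagen and 70.6% of bulb cells, against 43.8% and 78.7% before thinning. The bulb shares before thinning include the 446 cells left out. *Cdkn1b* was seen in 57.2% and 11.6%, against 82.0% and 16.6% before. Each had a UMI in the larger share of cells of the library where it was abundant. *Ccnd2* was seen in 66.6% of early-anagen and 97.6% of bulb cells, and *Cdk4* in 93.9% and 96.7%. *Ccnd1* was found in 31.1% of early-anagen and 13.6% of bulb cells, *Cdkn2c* in 25.2% and 9.37%, and *Ccnd3* in 58.0% and 64.1%. *Cdkn1c*, *Cdkn2a* and *Cdkn2b* stayed under 10% of cells in both.

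**Figure D2:**
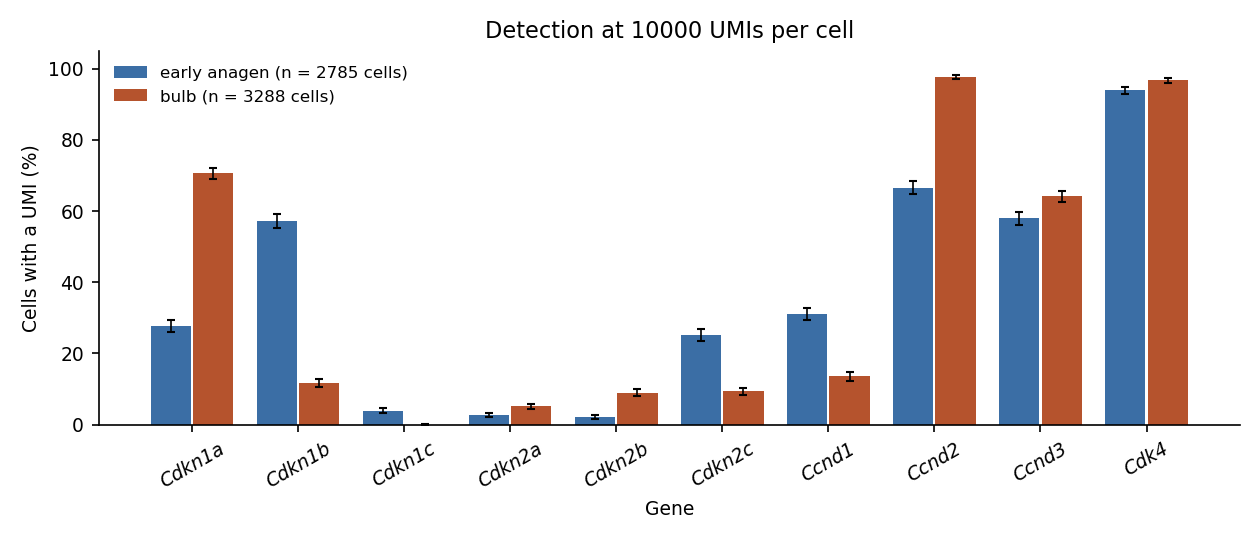
Percent of cells with at least 1 UMI of each gene after thinning to 10000 UMIs, in 2785 early-anagen (blue) and 3288 bulb cells (orange), with exact binomial 95% intervals. *Cdkn1a* and *Ccnd2* were seen in more bulb cells, *Cdkn1b*, *Cdkn2c* and *Ccnd1* in fewer.

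No cell type here can be taken to lack these genes, so barcodes that passed the UMI and mitochondrial limits with at most 5 *Dct* UMIs were used to show what other cells contribute. In early anagen there were 63, rich in *Krt14* (8996 CPM), with *Cdkn1a* at 314 CPM, *Cdkn1b* at 46.0, *Ccnd2* at 62.3 and *Cdk4* at 113. In the bulb there were 42, of which 19 were among the selected cells, with *Cdkn1a* at 666 CPM, *Cdkn2b* at 87.6, *Ccnd2* at 182 and *Cdk4* at 317. In both libraries the cells poor in *Dct* held more *Cdkn1a* and *Cdkn2b* and less *Ccnd2* than the selected cells. With at least 10 *Dct* UMIs required, the log2 ratio between the libraries was 2.18 for *Cdkn1a*, 2.48 for *Cdkn2b* and 2.11 for *Ccnd2*. With no *Krt10* or *Krt14* UMI allowed it was 2.05 for *Cdkn1a* and 2.10 for *Ccnd2*.

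In single cells the share without a UMI of the 6 inhibitors among the members was similar in both libraries, while the Cip/Kip gene seen was not the same. *Cdkn2d* is not among these 6 genes and was not counted. At 10000 UMIs, 619 of 2785 early-anagen cells (22.2%, 20.7 to 23.8) and 695 of 3288 bulb cells (21.1%, 19.8 to 22.6) held no UMI of the 6 inhibitors. Cells with *Cdkn1a* and no *Cdkn1b* made up 12.3% (11.1 to 13.6) of early-anagen and 62.1% (60.4 to 63.7) of bulb cells. Cells with *Cdkn1b* and no *Cdkn1a* made up 41.7% (39.8 to 43.5) and 3.10% (2.54 to 3.75). Both were seen together in 15.5% and 8.55% of cells. A cell without any D cyclin UMI was found in 10.9% (9.75 to 12.1) of early-anagen and 0.821% (0.542 to 1.19) of bulb cells. Counts at 1 depth miss transcripts, so these shares describe detection.

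**Figure D3:**
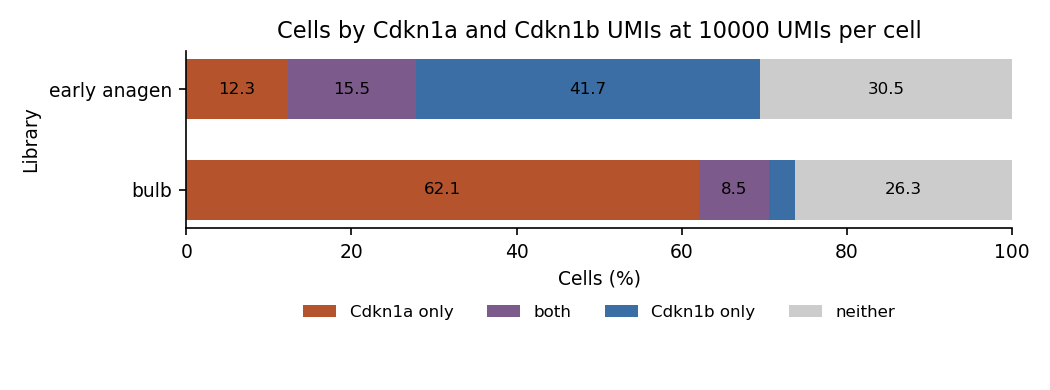
Percent of cells at 10000 UMIs that held UMIs of *Cdkn1a* only, of both genes, of *Cdkn1b* only or of neither, in each library. *Cdkn1b* only was the largest class in early anagen (41.7%) and *Cdkn1a* only in the bulb (62.1%).

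The transcripts were not spread evenly over cells. For *Cdkn1a* in the bulb the variance of the UMIs per cell was 2.81 times their mean, above 98.3% of the 6500 genes with at least 10 CPM, and the count per cell ran from 0 in 966 cells to 32. For *Ccnd2* it was 2.56 times the mean, with up to 42 UMIs in a cell. *Cdkn1b* in the bulb was near 1 (1.01), the value of random sampling. For a given relative spread this ratio rises with the mean, so genes of unlike mean cannot be ranked by it. The 98.3% was taken over genes of any mean from 10 CPM up, so it reflects level as well as spread. The mean per bulb cell was 0.125 UMIs for *Cdkn1b*, 1.91 for *Cdkn1a* and 6.02 for *Ccnd2*. In early anagen *Cdkn1a* (2.24) and *Ccnd1* (1.93) had the highest of these ratios among the members, beside a median of 1.099 over genes.

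Cells in cycle were marked by UMIs of *Mki67*, which encodes the Ki-67 antigen of dividing cells, and *Top2a*, the topoisomerase of S to M phase. At 10000 UMIs, 993 of 2785 early-anagen cells (35.7%, 33.9 to 37.5) and 69 of 3288 bulb cells (2.10%, 1.64 to 2.65) had at least 1, and 286 against 2 cells had 10 or more. The shares at all UMIs were 45.3% and 2.44%. Since the libraries differ so much in dividing cells, the members were compared again in cells with neither UMI after thinning, 1792 in early anagen and 3219 in the bulb. With all UMIs 1262 of the 2785 early-anagen cells had such a UMI, so some of the 1792 held one that thinning removed. In this comparison 12 DNA replication genes still summed to 428 CPM in early anagen and 239 CPM in the bulb, so cells in cycle were not fully removed. The same 3 members were higher, beside 27.7% of all genes, and the same 3 lower, beside 37.4%.

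Levels in these *Mki67/Top2a*-negative cells were 44.4 CPM in early anagen and 190 CPM in the bulb for *Cdkn1a* (log2 ratio 2.09, 1.99 to 2.20) and 99.3 and 12.6 CPM for *Cdkn1b* (-2.98, -3.14 to -2.83). *Ccnd2* was at 163 and 605 CPM (1.89, 1.83 to 1.95), and *Ccnd1* at 49.4 and 17.4 CPM (-1.50, -1.66 to -1.35). These differences were close to those over all cells. For *Cdkn2c* the levels were 19.6 CPM in early anagen and 8.85 CPM in the bulb, and the log2 ratio was -1.15 (-1.38 to -0.92) in place of -1.89. *Cdkn2a* was at 1.12 CPM (20 UMIs) in early anagen and 5.93 CPM (191 UMIs) in the bulb, under the minimum. *Cdkn2b* and *Cdkn2c* each reached 10 CPM in only 1 library here, so each could be called in 1 direction only.

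Within early anagen, 2 members were called between *Mki67/Top2a*-positive and -negative cells. *Cdkn2c* was at 70.5 CPM (65.4 to 75.9) in positive and 19.6 CPM (17.6 to 21.8) in negative cells, a log2 ratio of 1.84 (1.66 to 2.03), and it was the 1 member called higher beside 8.77% of 7757 genes. *Ccnd2* was the 1 called lower, beside 3.74% of genes, at 99.6 CPM (93.5 to 106) against 163 CPM (157 to 169) and a log2 ratio of -0.71 (-0.82 to -0.61). The *Cdkn2c* transcript was thus higher in positive than in negative cells, and that of *Ccnd2*, the leading D cyclin in the bulb, was lower. *Cdkn2a* had 64 UMIs in 993 positive and 20 in 1792 negative cells, or 6.45 and 1.12 CPM, under the minimum. *Cdkn1a* (49.3 and 44.4 CPM) and *Cdkn1b* (101 and 99.3 CPM) had log2 ratios of 0.15 (-0.01 to 0.32) and 0.02 (-0.10 to 0.13), whose intervals include 0. *Cdk4* (401 and 299 CPM, 0.42), *Ccnd1* (61.4 and 49.4 CPM, 0.31) and *Ccnd3* (101 and 90.4 CPM, 0.16) were within 1.5-fold.

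Positive cells were also deeper before thinning, with a median of 34875 UMIs against 21039 in negative cells, and the part of this in the ratios was not tested beyond thinning. With all UMIs kept, the log2 ratio was 1.78 for *Cdkn2c* and -0.68 for *Ccnd2*. With the 5% of cells with the most UMIs left out, as a guard against doublets, it was 1.74 and -0.695.

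The levels were graded with the number of *Mki67* and *Top2a* UMIs. Over early-anagen cells with 0, 1 to 2, 3 to 9 and 10 or more such UMIs (1792, 400, 307 and 286 cells), *Cdkn2c* stood at 19.6, 24.3, 54.7 and 152 CPM. *Ccnd2* stood at 163, 130, 90.9 and 66.8 CPM. The first was higher and the second lower in each successive bin. *Ccnd1* was 49.4, 70.5, 68.1 and 41.6 CPM, highest in the middle bins, and *Cdkn1a* was 44.4, 29.8, 63.8 and 61.2 CPM, lowest in the second. *Cdkn2a* was 1.12, 2.0, 7.17 and 11.9 CPM, on 20, 8, 22 and 34 UMIs. *Cdk4* was 299, 377, 421 and 412 CPM. *Cdkn1b* stayed between 86.3 and 122 CPM and *Ccnd3* between 88.1 and 111 CPM.

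**Figure D4:**
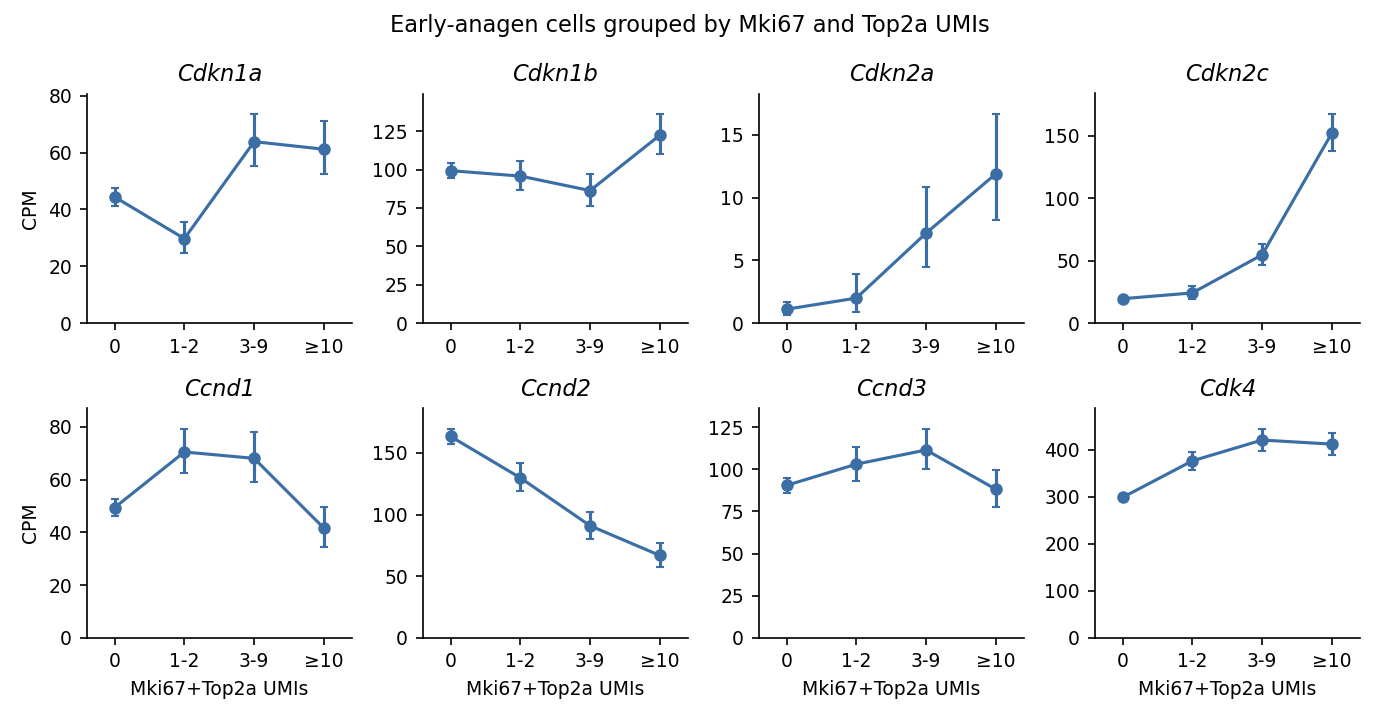
CPM of 8 members (linear axes from 0) in early-anagen cells thinned to 10000 UMIs and grouped by their summed *Mki67* and *Top2a* UMIs (0, 1-2, 3-9, ≥10); bars are 95% counting intervals. *Cdkn2c* runs from 19.6 up to 152 CPM and *Ccnd2* from 163 down to 66.8 CPM, while *Ccnd1* is highest in the middle bins.

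In the bulb only 69 cells were positive, so the same split rests on few UMIs. *Cdkn2c* had 84 UMIs in these cells, 122 CPM (97.1 to 151) against 8.85 CPM (7.86 to 9.94) in 3219 negative cells, a log2 ratio of 3.78 (3.41 to 4.14). *Cdkn2a* had 18 UMIs, 26.1 CPM (15.5 to 41.2) against 5.93 CPM, a log2 ratio of 2.14 (1.35 to 2.84). *Cdk4* (567 and 367 CPM, 0.62) and *Ccnd3* (167 and 110 CPM, 0.61) just passed 1.5-fold. These 4 were called higher, beside 18.2% of 7284 genes, and 0 of 9 were called lower, beside 11.3%. *Cdkn2c* and *Cdkn2a* reached 10 CPM only in the positive cells, so they could only be called higher. *Cdkn1a* was not low in the positive bulb cells, at 262 CPM (225 to 303) against 190 CPM. *Ccnd2* stood at 484 CPM (434 to 539) against 605 CPM (596 to 613).

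Cells without *Mki67* and *Top2a* can still differ in how near they are to S phase, so the 1792 such early-anagen cells were ordered by UMIs of 12 replication genes, among them *Mcm3* and *Mcm5* of the replicative helicase and *Hells*. The 470 cells with at least 5 such UMIs in all were set against the 549 with at most 1. *Ccnd1* was at 79.8 CPM (71.9 to 88.3) in cells with the most and 37.0 CPM (32.1 to 42.4) in cells with the fewest, a log2 ratio of 1.11 (0.86 to 1.36). It was the 1 member called higher, beside 6.55% of 7695 genes, and 0 of 7 were called lower, beside 6.52%. *Ccnd3* (0.42, 0.23 to 0.60), *Cdk4* (0.34, 0.24 to 0.44) and *Ccnd2* (0.21, 0.07 to 0.35) had smaller log2 ratios above 0, and *Cdkn1b* one below 0 (-0.40, -0.58 to -0.21). *Cdkn2c* was at 21.5 and 19.7 CPM, a log2 ratio of 0.13 (-0.28 to 0.53), so it was not graded here as it was with *Mki67* and *Top2a*. The E2F target *E2f1* was at 41.1 CPM against 1.46 CPM in the same cells. Since the cells were picked by replication genes, *E2f1* was likely to be higher by the split itself.

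*Oca2* is a late pigmentation gene, which the study used to mark the most differentiated McSCs of early anagen and found raised in mature bulb melanocytes. Whether bulb cells with and without an *Oca2* UMI differ in differentiation was not tested. At 10000 UMIs, 292 of 2785 early-anagen cells (10.5%, 9.37 to 11.7) and 3140 of 3288 bulb cells (95.5%, 94.7 to 96.2) had an *Oca2* UMI. In the bulb barcodes poor in *Dct*, 1 of 42 had one at 5000 UMIs, against 86.4% of selected cells. Of the *Oca2*+ early-anagen cells 22.3% (17.6 to 27.5) were *Mki67/Top2a*-positive, against 37.2% (35.3 to 39.2) of *Oca2*- cells.

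Early-anagen *Oca2*+ cells did not have the inhibitor pattern of the bulb. *Cdkn1a* had 31.2 CPM (25.1 to 38.3) where *Oca2* was seen and 47.9 CPM (45.3 to 50.7) where it was not, a log2 ratio of -0.62 (-0.94 to -0.31). It was the 1 member called lower, beside 6.39% of 7734 genes, and 0 were called higher, beside 5.83%. Another random thinning gave -0.56, short of 1.5-fold, and all UMIs gave -0.71. *Cdkn1b* had 107 CPM (95.6 to 120) and 98.8 CPM (94.97 to 103) in the same cells, and its interval of the log2 ratio (-0.06 to 0.29) included 0. *Ccnd2* was at 161 and 138 CPM (0.22, 0.07 to 0.36), *Cdk4* at 376 and 330 CPM (0.19, 0.10 to 0.28), *Ccnd3* at 76.0 and 96.4 CPM (-0.34, -0.55 to -0.14) and *Ccnd1* at 57.9 and 53.2 CPM (0.12, -0.12 to 0.35). For *Cdkn2c* the log2 ratio was -0.51 in one random thinning and 0.01 in another, so no direction was readable. In *Mki67/Top2a*-negative cells alone (227 *Oca2*+ and 1565 *Oca2*-), *Cdkn1a* was at 28.2 and 46.8 CPM (-0.73, -1.12 to -0.36), the 1 member called lower beside 5.95% of genes, 0 were called higher, beside 6.89%, and *Ccnd2* was at 164 and 163 CPM (0.01, -0.16 to 0.16).

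The step to the bulb was therefore also measured between *Oca2*+ *Mki67/Top2a*-negative cells of both libraries, 227 in early anagen and 3085 in the bulb. *Cdkn1a* was at 28.2 CPM (21.7 to 36.0) in early anagen and 185 CPM (180 to 189) in the bulb, a log2 ratio of 2.71 (2.36 to 3.09). *Cdkn1b* was at 104 CPM (91.5 to 119) and 12.2 CPM (11.0 to 13.5), a log2 ratio of -3.10 (-3.34 to -2.86). *Ccnd2* was at 164 CPM (148 to 181) and 591 CPM (582 to 599), and *Ccnd1* at 61.2 CPM (51.5 to 72.3) and 17.1 CPM (15.7 to 18.6). With *Cdkn2b* (1.32 and 10.3 CPM, 3 UMIs in early anagen, log2 ratio 2.96, 1.40 to 5.24) and *Cdkn2c* (22.0 and 8.72 CPM), the same 3 members were higher, beside 25.2% of genes, and the same 3 lower, beside 37.6%. *Cdkn2b* reached 10 CPM only in the bulb and could only be called higher, and *Cdkn2c* only in early anagen and could only be called lower. The differences between the libraries were thus at least as large among *Oca2*+ cells as over all cells for *Cdkn1a* and *Cdkn1b*.

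Within the bulb, 148 *Oca2*- cells were set against 3140 *Oca2*+ cells. *Cdkn1a* had 186 CPM (182 to 191) where *Oca2* was seen and 294 CPM (267 to 323) where it was not, a log2 ratio of -0.66 (-0.80 to -0.51), and *Ccnd2* at 589 CPM (581 to 598) and 884 CPM (837 to 934), a log2 ratio of -0.59 (-0.67 to -0.50). *Cdkn1b*, *Cdkn2a*, *Cdkn2b*, *Cdkn2c* and *Ccnd1* were also lower, on 17 to 38 UMIs in *Oca2*- cells. Of the *Oca2*- bulb cells 9.46% were *Mki67/Top2a*-positive, against 1.75% of *Oca2*+ cells. The 14 positive *Oca2*- cells held 20 of the 36 *Cdkn2c* UMIs and 6 of the 17 *Cdkn2a* UMIs of *Oca2*- cells. In all 7 of 9 were called lower, beside 8.79% of 7045 genes, and 0 higher, beside 4.3%. The number lower was 4 with another random thinning and 3 at 5000 UMIs, where the share of all genes was not counted. *Cdkn2a* reached 10 CPM only in the *Oca2*- cells. *Cdk4* (371 and 376 CPM) and *Ccnd3* (110 and 130 CPM) were within 1.5-fold. Cells poor in *Dct* were among the *Oca2*- cells, in which *Perp*, a gene of desmosomes that is also a p53 target, was at 70.3 CPM against 0.701 CPM, and the part of such cells in the ratios was not tested beyond what follows. With the same thinned UMIs and at least 10 *Dct* UMIs per cell, an alternative chosen after seeing the data, 135 *Oca2*- and all 3140 *Oca2*+ cells were kept. In these cells 5 of 9 members were called lower, and the share of all genes was not counted. *Ccnd2* then had 589 and 944 CPM with and without *Oca2* (log2 ratio -0.68), *Cdkn1a* 186 and 265 CPM (-0.51, short of 1.5-fold) and *Cdkn2b* 10.2 and 9.63 CPM (0.086). In *Mki67/Top2a*-negative bulb cells 4 of 8 were lower, beside 8.09% of genes, and 0 higher, beside 4.89%.

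Over bulb cells with 0, 1, 2 to 3 and 4 or more *Oca2* UMIs (148, 220, 638 and 2282 cells), *Cdkn1a* was 294, 249, 200 and 176 CPM and *Ccnd2* 884, 751, 662 and 553 CPM. Both were lower in each successive bin. *Cdkn2c* was 24.3, 20.0, 13.3 and 8.94 CPM in the same bins, and *Cdk4* was level at 376, 375, 382 and 368 CPM. In *Mki67/Top2a*-negative bulb cells *Cdkn2c* was at 11.9 CPM (6.82 to 19.4) without *Oca2* and 8.72 CPM (7.71 to 9.83) with it. These intervals overlapped, so the *Cdkn2c* values of the bins cannot be told apart from the share of cycling cells. In early anagen, over 2493, 139, 101 and 52 cells, *Cdkn1a* was 47.9, 39.6, 22.8 and 25 CPM and *Ccnd2* 138, 152, 167 and 171 CPM, so the *Ccnd2* values of the bins ran in opposite directions in the 2 libraries. In early anagen the *Ccnd2* intervals of the bins with *Oca2* overlapped (132 to 174, 143 to 195 and 137 to 211 CPM). In *Mki67/Top2a*-negative early-anagen cells *Ccnd2* was level, at 164 CPM with and 163 CPM without *Oca2*.

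**Figure D5:**
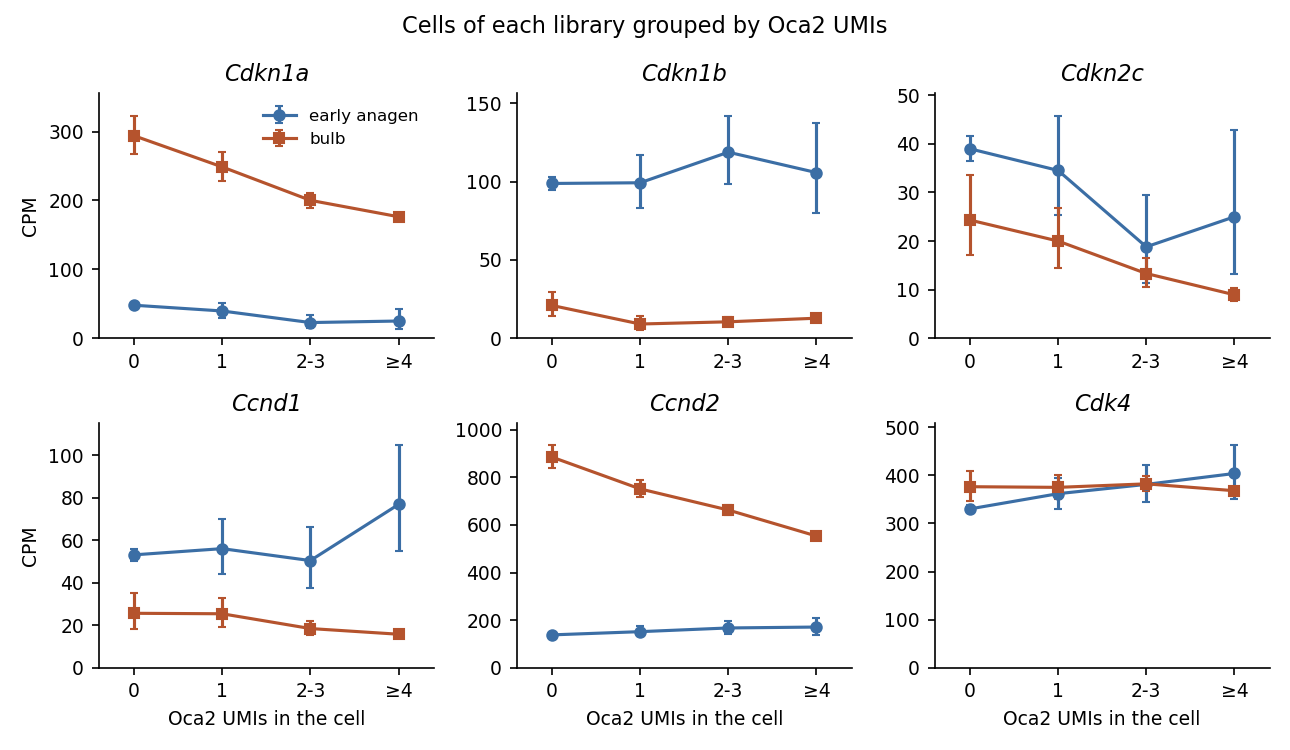
CPM of 6 members (linear axes from 0) in cells thinned to 10000 UMIs and grouped by *Oca2* UMIs (0, 1, 2-3, ≥4), in early anagen (blue circles) and the bulb (orange squares); bars are 95% counting intervals. *Cdkn1a* and *Ccnd2* are lower in bulb cells with more *Oca2* and above early anagen in each bin, and *Cdkn1b* is below early anagen in each bin.

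Genes around the members were read from lists of the same pathway. Of 32 RB and E2F partners 28 reached 10 CPM, and between the libraries 1 was higher in the bulb (*E2f5*, 18.6 CPM in early anagen and 59.4 in the bulb) and 21 were lower, with a median log2 ratio of -2.20 beside -0.19 over all genes, of which 26.5% were higher and 38.8% lower. The largest ratios were those of *Ccna2* (61.7 and 4.17 CPM), *E2f8* (16.2 and 1.34), *Cdc25b* (13.4 and 1.32) and *Cks2* (230 and 24.9). Of these, *Ccna2*, *Cdc25b* and *Cks2* serve S phase and mitosis. Most of the 21, *Ccna2*, *E2f8* and *Cdc25b* among them, reached 10 CPM only in early anagen, so they could only be called lower. Among *Mki67/Top2a*-negative cells 18 were measurable, 3 were higher, beside 27.7% of all genes, and 10 lower, beside 37.4%. The 3 higher were *E2f5* (20.8 CPM in early anagen and 59.4 in the bulb), *E2f4* (19.1 and 33.0), both repressive E2Fs, and *Cdkn2d* (54.0 and 93.5), the remaining INK4 inhibitor. *Rb1* (22.1 and 4.60 CPM) and its relative *Rbl2* (56.7 and 13.5) were among the 10 lower, so in bulb cells without *Mki67* or *Top2a* the pocket protein transcripts were scarcer, not more abundant. *Rb1* reached 10 CPM only in early anagen, so it could only be called lower. In the positive cells of early anagen 21 of 30 partners were higher, beside 8.77% of all genes, and 0 lower, beside 3.74%, led by *Ccna2*, *Fbxo5* and *Ccnb1*. Since these cells were picked by *Mki67* and *Top2a*, partners that serve S phase and mitosis were likely to be higher by the split itself. *Cdk1*, *Ccna2* and *Ccnb1* are also in the list of proliferation genes. Between *Oca2*+ and *Oca2*- early-anagen cells 12 of 27 were lower, beside 6.39% of all genes, and 1 higher, beside 5.83%, *Cdk2* (504 CPM with and 326 without *Oca2*), whose gene overlaps the pigment gene *Pmel* on the opposite strand. In *Mki67/Top2a*-negative cells alone 5 of 17 were lower, beside 5.95% of all genes, and 1 higher, beside 6.89%. The median log2 ratio of the partners was -0.46 over all early-anagen cells and -0.15 in the *Mki67/Top2a*-negative ones.

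Of 20 p53 targets other than *Cdkn1a*, 14 were measurable between the libraries, 6 higher and 4 lower in the bulb, beside 26.5% and 38.8% of all genes, with a median log2 ratio of 0.21. Those higher included *Ccng1* (18.5 CPM in early anagen and 49.6 in the bulb), *Phlda3* (6.92 and 17.3), *Plk3* (7.87 and 14.3) and *Ei24* (73.5 and 130). With all UMIs *Phlda3* was seen in 13.5% of early-anagen and 8.92% of bulb cells, so its bulb level came from few cells. Within the thinned bulb cells it was at 73.6 CPM without *Oca2* and 14.1 CPM with it. Those lower were *Sesn1* (14.0 and 6.17 CPM), *Trp53inp1* (16.6 and 8.34), *Gadd45a* (35.9 and 18.2) and *Btg2* (28.0 and 16.1), and *Mdm2*, the feedback inhibitor of p53, was level at 31.7 and 31.4 CPM. *Phlda3* and *Plk3* reached 10 CPM only in the bulb, and *Sesn1* and *Trp53inp1* only in early anagen, so each could be called in 1 direction only. Of 15 quiescence and antiproliferative genes, 12 were lower in the bulb, beside 38.8% of all genes, and 0 higher, beside 26.5%, with a median log2 ratio of -0.996. *Txnip* (176 CPM in early anagen and 17.1 in the bulb), *Zfp36l2* (72.3 and 11.9), *Pdcd4* (64.5 and 15.1) and *Zfp36l1* (235 and 62.0) had the largest ratios. All 10 proliferation genes were lower, with *Mki67* at 147 and 2.92 CPM and *Top2a* at 245 and 7.27 CPM, as were 10 of 11 measurable replication genes. Some genes of these lists, *Foxo4*, *Mki67* and *Top2a* among them, reached 10 CPM only in early anagen, so they could only be called lower.

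The 8 members with at least 10 CPM in either library, thus without *Cdkn1c* and *Cdkn2a*, were last matched to the genes with the most similar profile of log2(CPM + 1) over the 8 groups formed by library, *Mki67/Top2a* and *Oca2*, the smallest of 14 cells, among 8708 genes, by Euclidean distance after each profile was centred on its mean. *Cdkn2c* was nearest to *Lrr1* (distance 0.71), *Tedc1* (0.83) and *Haus4* (0.87), beside a median distance of 4.25 over genes. *Cdkn1a* was nearest to *Fdps* (0.78), *Nutf2-ps1* (0.83) and *Sdc2* (0.87), and *Cdkn1b* to *Irf2bp2* (0.65), *Myo10* (0.71) and *Ptgfrn* (0.84). *Ccnd2* was nearest to *Aldoa* (0.72), *Nat8f1* (0.79) and *Ero1l* (0.79), and *Cdkn2b* to *Cited1* (0.71), *Avpi1* (0.76) and *Tspan3* (0.82). *Fdps* had 222 CPM in early anagen and 1170 in the bulb, and *Myo10* 166 and 22.9, so both also differed between the libraries. *Ccnd1* was nearest to *Med1*, *Smarcd1* and *Dock1*, *Ccnd3* to *Pde12*, *Vps72* and *Atrip*, and *Cdk4* to *Acp1*, *Vdac3* and *Tmem167*.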

How the data were processed

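The 2 libraries analysed were 1 of early-anagen McSCs and 1 of bulb melanocytes. The values are UMI counts for each gene and barcode as the authors deposited them, made with Cell Ranger 6.0.1 per the submitters' processing notes and not normalized. The telogen library was not used here. Samples were grouped by their labels, and the members and gene lists were chosen with earlier results of these data known. Selected cells held 75718468 UMIs in early anagen and 55883067 in the bulb.

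UMIs were summed over cells and scaled to CPM with Python 3.11.15, numpy 2.4.6 and scipy 1.17.1. Ratios have exact conditional intervals of 2 Poisson counts, shares have Clopper-Pearson intervals, and cells were not treated as replicates, so no test was run. Splits used cells thinned to 10000 UMIs, positive from 1 UMI. Genes named are the members, up to 4 genes per list, comparison and direction, genes asked for by a small count, and the 3 nearest profiles; *Mdm2* was named after its values were seen. The markers of 1 further cell type are not reported here. No doublet caller was used; the 5% of cells with the most UMIs were left out as an alternative. The scripts were tested on simulated data. Alternatives were other cell limits, depths, scalings (edgeR 4.0.16) and definitions of positive cells.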

Additional observations from a re-analysis of the deposited data

Results flagged for a closer look

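The log2 ratio of *Ccnd2* between *Oca2*+ and *Oca2*- cells was 0.22 in early anagen and -0.59 in the bulb, so the same split had opposite directions in the 2 libraries, each with a counting interval off 0. With 1 library per state the difference between the 2 ratios was not tested. In *Mki67/Top2a*-negative cells the ratios were 0.01 and -0.66, and in bulb cells with at least 10 *Dct* UMIs, chosen after seeing the data, it was -0.68. *Oca2*- bulb cells were few, at 148.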

How the results depend on the processing

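No paired analysis was possible because each state has 1 library and no replicate numbers are shared. For bulb over early anagen, 3 members were higher and 3 lower under each alternative run, except 4 and 4 with no minimum of CPM and 2 and 2 at 50 CPM, which test other numbers of members. Of all genes, 37.2% were higher and 29.96% lower with TMM factors. With mitochondrial, ribosomal protein and melanocyte marker genes left out of the total, these shares were 20.8% and 44.9%. Apart from the shares given above at equal depth and in cells without *Mki67* or *Top2a*, the share of all genes was not counted under the other alternatives. The median log2 ratio was 0.19 with cells thinned to 10000 UMIs, 0.18 at 5000 UMIs, 0.29 in cells without *Mki67* or *Top2a*, 0.20 as the mean of each cell's CPM, 0.43 with TMM factors, and -0.0595 with mitochondrial, ribosomal protein and melanocyte marker genes left out of the total, where *Cdk4* was at -0.13. The last 2 scalings moved every log2 ratio by the same amount, 0.31 and -0.18. The median over all genes was then 0.18 and -0.41. The members lower in *Oca2*+ early-anagen cells numbered 0 with another random seed and 2 both when 2 *Oca2* UMIs were required and with no *Krt10* or *Krt14* UMI, and the log2 ratio of *Cdkn2c* was 0.012 with another seed, 0.026 with all UMIs, and 0.19 in *Mki67/Top2a*-negative cells. In the bulb the members lower in *Oca2*+ cells numbered 4 with another seed, 3 at 5000 UMIs, 4 when 2 *Oca2* UMIs were required, and, in alternatives chosen after seeing the data, 4 in cells without *Mki67* or *Top2a* and 5 with at least 10 *Dct* UMIs, where the log2 ratio of *Cdkn2b* was 0.0863. Under these alternatives of the *Oca2* splits the share of all genes was counted only in *Mki67/Top2a*-negative cells. The causes were not tested. Cells with a *Mki67* or *Top2a* UMI in early anagen and the bulb were 29.0% and 1.42% at 5000 UMIs, 26.2% and 1.40% when 2 UMIs were required, and 44.1% and 9.95% by 2 UMIs of the proliferation genes. In early anagen they were 45.3% with all UMIs, 31.2% with no *Krt10* or *Krt14* UMI and 32.7% without the 5% of cells with the most UMIs. Of 342 values of single members under the alternatives, 268 stayed within the interval of the reported value, 69 moved beyond it and 5 reversed. For bulb over early anagen 44 of 130 moved and 1 reversed, and for the *Mki67/Top2a* split 7 of 70 moved and 0 reversed. In the *Oca2* splits 10 of 70 moved and 3 reversed in early anagen, and 8 of 72 moved and 1 reversed in the bulb. Among counts of members, median ratios and shares of cells, 81 stayed, 21 moved and 1 reversed, where a count stayed if within 1.5-fold. Depth limits *Cdkn1c*, *Cdkn2a* and *Cdkn2b*, whose sums rest on few UMIs.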
